A study of Homo sapiens with 14 samples.

Results

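The HSP70 cluster on chromosome 6 holds 3 genes for cytosolic chaperones of the HSP70 family: HSPA1L, HSPA1A and HSPA1B. Its members here are the deposited peaks of the 12 antibody libraries that overlap chromosome 6 from 31775000 to 31800000 (hg19) by at least 1 bp, and they number 37 of 117699 peaks. The rule for a member uses its position alone. Chromatin immunoprecipitation and sequencing (ChIP-seq) was done in K562 cells, an established human erythroleukemia line, with an antibody against heat shock factor 1 (HSF1), an antibody against heat shock factor 2 (HSF2) or non-specific IgG. The cells were freely cycling or arrested in mitosis, and either received no treatment (culture at 37 °C) or 30 min at 42 °C. The 4 conditions (cycling non-treated, cycling heat-treated, mitotic non-treated, mitotic heat-treated) have 1 library per antibody, each pooled from 10 immunoprecipitations. Input chromatin, sequenced once for each cell state from cells labelled as heat-treated, served as the control of the peak lists.

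Because each group is 1 library, conditions cannot be tested, and every comparison below is between these particular libraries. Values are tags in a peak per 1000000 kept tags (CPM). Intervals are 95% intervals, exact Poisson for a CPM and exact conditional for a ratio of CPM, and cover counting error only.

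HSP70 proteins bind unfolded stretches of other proteins and help them to refold. HSPA1A and HSPA1B are the classical heat-inducible HSP70 genes and encode practically the same protein, while HSPA1L is a close relative best known from testis. HSF1 activates such genes under heat by binding heat shock elements, runs of the GAA unit in alternating orientation. Its relative HSF2 binds such elements too and can act together with HSF1. In the RefSeq gene table (GRCh38.p14) the order along the chromosome is LSM2, HSPA1L, HSPA1A, HSPA1B and SNHG32, with no further gene between HSPA1A and HSPA1B. HSPA1L lies on the minus strand and the other two on the plus strand, so that HSPA1L and HSPA1A start back to back.

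The sequences before the starts are shown because the strongest peaks of the window sit over them, and because the likeness of HSPA1A and HSPA1B bears on how short tags can be placed. Each line gives the 250 bases before the start in RefSeq (GRCh38.p14, plus strand, chr6:31815293-31815542 for HSPA1A and chr6:31827488-31827737 for HSPA1B), and capitals mark the match to the element GAANNTTC.
HSPA1A: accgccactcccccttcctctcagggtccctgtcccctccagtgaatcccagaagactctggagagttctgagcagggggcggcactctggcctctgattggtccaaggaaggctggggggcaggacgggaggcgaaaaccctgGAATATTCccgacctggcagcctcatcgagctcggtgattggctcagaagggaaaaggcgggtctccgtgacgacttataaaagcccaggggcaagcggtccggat
HSPA1B: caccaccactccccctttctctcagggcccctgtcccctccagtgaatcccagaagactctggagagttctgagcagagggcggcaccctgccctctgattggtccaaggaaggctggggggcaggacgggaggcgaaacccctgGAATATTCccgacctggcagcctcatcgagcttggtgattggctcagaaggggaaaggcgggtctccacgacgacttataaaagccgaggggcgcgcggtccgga

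The HSPA1A and HSPA1B sequences were alike at 235 of 251 aligned positions (93.6%), with 14 substitutions and 2 gap positions. Their longest identical run was 49 bases, and 28 of the 215 windows of 36 bases (13.0%), the tag size of 10 of the 12 lists, occurred in both. A tag from such a stretch cannot be assigned to one gene by its sequence. How the aligner treated such tags is not given in the sources used here, and its part in the values below was not tested. The share of 13.0% covers only the sequence before the starts. Heat-treated HSF peaks over the starts reached 1338 to 4511 bp to the right of the start positions used below. The sequences of HSPA1A and HSPA1B were not compared there. The share of tags in whole peaks that cannot be assigned to one gene is therefore unknown. The HSPA1L window, read on the plus strand, coincided with that of HSPA1A over 241 bases, so the 2 genes share most of their upstream sequence and their peaks cannot be told apart.

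Elements were searched in the RefSeq windows of 300 bases that reach from 250 before to 50 after each start. All 3 genes held 1 GAANNTTC match, which reads the same on both strands, and none held TTCNNGAA. The match lay 106 to 99 bases before the start of HSPA1A, 105 to 98 before that of HSPA1B and 161 to 154 before that of HSPA1L, where it is the same DNA as the HSPA1A match. Of all 35116 windows, 6.77% held GAANNTTC and 13.5% held either pair of units. No window of the 3 genes held a full run of 3 units (GAANNTTC followed by NNGAA, or TTCNNGAA followed by NNTTC, found in 0.490% of windows), but each came within 1 mismatch, as did 6.24% of all windows. HSPA1A and HSPA1B also held TATAAA shortly before the start (30 to 25 and 29 to 24 bases), present in 11.5% of windows on either strand, and CCAAT at 2 places each, present in 34.6%. Of 30 other heat shock and chaperone genes, 27 were in the table. Of these, 18 held a pair of units and 9 a run of 3 in at least 1 of their windows, among them HSPA8, the constitutive HSP70, HSPA6, a strictly inducible one, and DNAJA1, a J-domain partner. Over all 27305 gene symbols the shares were 16.2% and 0.608%.

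Positions in the peak lists are hg19. The starts are taken as 31783000 for HSPA1L and HSPA1A and 31795500 for HSPA1B, given to the nearest 500 bp, and a start region reaches 500 bp to either side. Of the 37 peaks, 10 lay over the HSPA1L/HSPA1A start and 10 over the HSPA1B start. Each of the 8 HSF lists had exactly 1 peak over each start, and so did heat-treated IgG of both cell states. Neither non-treated IgG list had a start peak. Its value is then unknown and not 0, and the non-treated mitotic IgG library was the shallowest of all (2066373 kept tags, against 2066373 to 28676943 over the 12 libraries). Non-treated cycling IgG was not shallow. It had 14761560 kept tags and 15758 peaks, and heat-treated cycling IgG had 14567365 kept tags. A further 9 peaks fell between the genes and 1 each on the body side of HSPA1A and of HSPA1B (within 3000 bp downstream of a start). The other 6 lay further out, 4 on the side of HSPA1L and 2 beyond HSPA1B. The 17 peaks away from the starts had 0.779 to 5.98 CPM, with a median of 1.67, and the 20 at the starts 1.64 to 35.9 CPM.

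**Figure D1:**
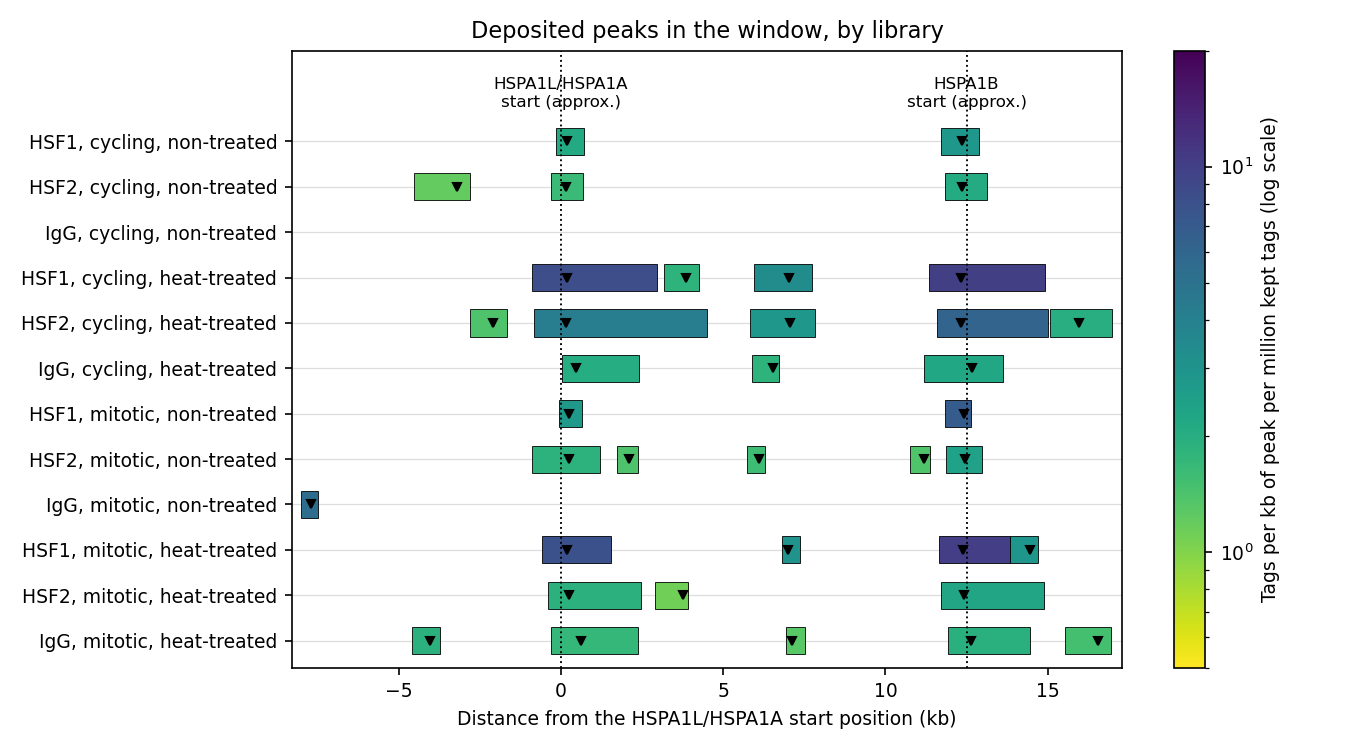
Deposited peaks in the window for the 12 libraries, drawn against the distance from the HSPA1L/HSPA1A start position in kb. Bars span each peak, triangles mark summits and colour gives CPM per kb of peak on a log scale. The 8 HSF rows and the 2 heat-treated IgG rows each have 1 peak over each start, and the HSF peaks over the starts are longer with heat (2133 to 5336 bp) than without (706 to 2086 bp).

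In cycling cells, heat went with far more HSF1 at both starts. At HSPA1L/HSPA1A the HSF1 library without heat had 27 tags, 1.87 CPM (1.23 to 2.72), and the one with heat 537 tags, 32.1 CPM (29.4 to 34.9), a ratio of 17.2 (11.7 to 26.3). At HSPA1B the values were 47 tags, 3.25 CPM (2.39 to 4.33), and 601 tags, 35.9 CPM (33.1 to 38.9), a ratio of 11.0 (8.20 to 15.2). The intervals with and without heat lay far apart at both genes. Heat-treated HSF1 peaks over the starts, at 31782105 to 31785960 and 31794357 to 31797922, ranked 21st and 17th by tags and 4th and 2nd by fold among 6447 peaks. Their deposited folds over input were 40.4 and 45.1, and those of the library without heat 2.76 and 4.34.

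HSF2 rose at the same places. At HSPA1L/HSPA1A it had 47 tags, 1.64 CPM (1.20 to 2.18), without heat and 443 tags, 22.7 CPM (20.7 to 25.0), with heat, a ratio of 13.9 (10.3 to 19.2). At HSPA1B it went from 78 tags, 2.72 CPM (2.15 to 3.39), to 409 tags, 21.0 CPM (19.0 to 23.1), a ratio of 7.72 (6.05 to 9.97). Heat-treated HSF2 peaks, at 31782176 to 31787511 and 31794598 to 31798016, had folds of 25.6 and 26.8 and ranked 16th and 19th by tags among 4315. Without heat the HSF2 folds were 5.15 and 5.38. In CPM without heat the 2 factors did not differ beyond counting error (HSF1 over HSF2 1.14, 0.683 to 1.87, and 1.20, 0.815 to 1.74). Neither start reached a ratio of 2 there, and 2.95% of all HSF1 and HSF2 pairs without heat did.

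**Figure D2:**
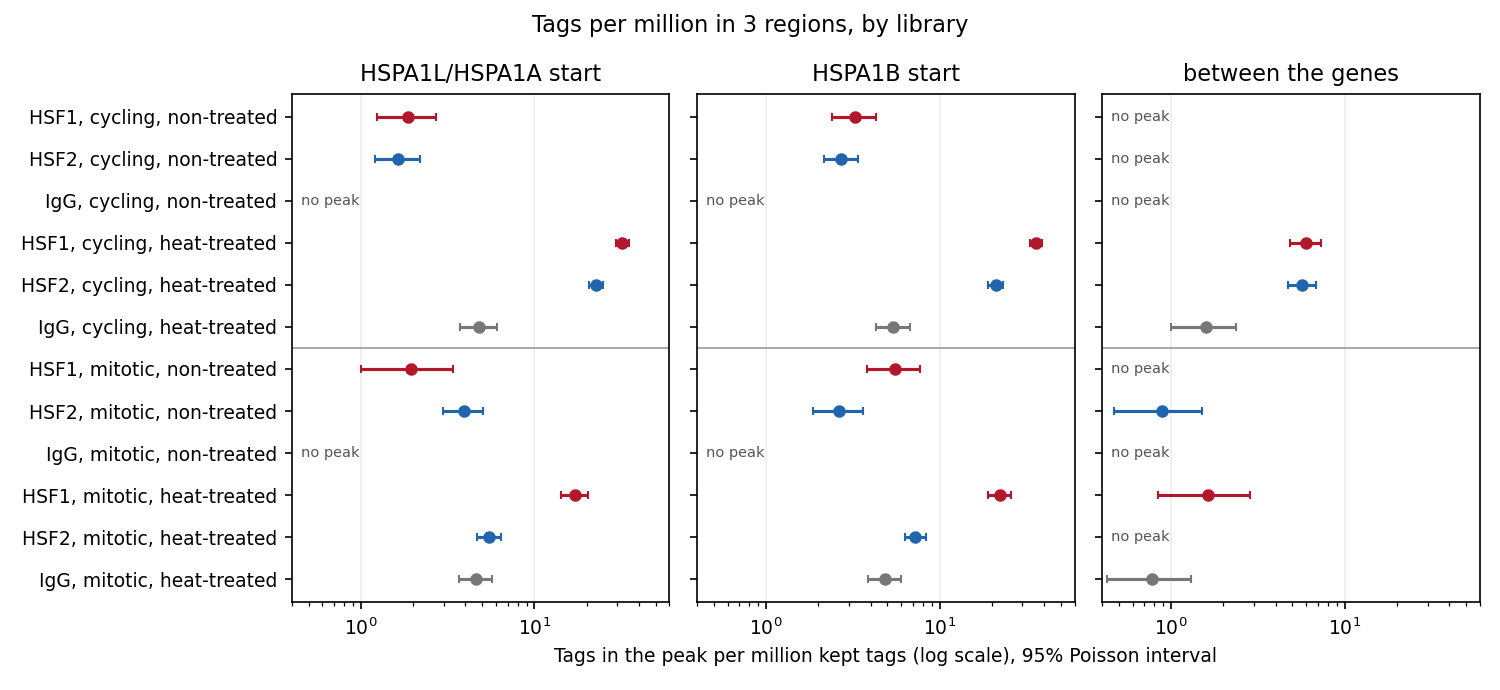
CPM (log axis) with 95% Poisson intervals at the HSPA1L/HSPA1A start, the HSPA1B start and the region between the genes, by library, with HSF1 in red, HSF2 in blue and IgG in grey. Heat-treated cycling HSF1 is highest in each panel (32.1, 35.9 and 5.98 CPM), and heat-treated mitotic HSF2 (5.48 and 7.24 CPM) sits near IgG of the same cells (4.62 and 4.84 CPM).

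Mitotic cells showed the same direction with smaller ratios. HSF1 at HSPA1L/HSPA1A had 12 tags, 1.95 CPM (1.01 to 3.40), without heat and 126 tags, 17.1 CPM (14.2 to 20.3), with heat, a ratio of 8.76 (4.84 to 17.4). At HSPA1B it had 34 tags, 5.52 CPM (3.82 to 7.71), and 164 tags, 22.2 CPM (18.9 to 25.9), a ratio of 4.03 (2.77 to 6.01). These heat-treated HSF1 peaks, at 31782399 to 31784531 and 31794663 to 31796838, had the 2 highest folds (16.3 and 20.5) of the 4982 peaks in their list. The HSPA1B peak without heat (fold 5.34) already ranked 3rd by fold among 4534, and that of HSPA1L/HSPA1A (fold 2.53) 46th.

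The change of HSF2 in mitotic cells was the smallest. At HSPA1L/HSPA1A it had 58 tags, 3.92 CPM (2.98 to 5.07), without heat and 155 tags, 5.48 CPM (4.65 to 6.41), with heat, a ratio of 1.396 (1.03 to 1.92). At HSPA1B it had 39 tags, 2.64 CPM (1.88 to 3.61), and 205 tags, 7.24 CPM (6.29 to 8.31), a ratio of 2.75 (1.94 to 3.97). Heat-treated peaks were wider, and per kb of peak the mitotic HSF2 ratios were 1.02 and 0.965. At HSPA1B the mitotic HSF2 peak was 3165 bp with heat against 1112 bp without, and its ratio was above 1 in CPM and slightly below 1 per kb. Per kb of peak, HSF1 and HSF2 of cycling cells still had ratios of 2.59 to 3.94, and mitotic HSF1 had 2.90 and 1.48.

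The heat ratios were set beside those of all overlapping peaks. The ratio was at least 2 in 7 of the 8 pairs of start peaks (2 factors, 2 cell states, 2 starts). Among all overlapping peaks of the heat-treated and non-treated lists the share at least 2 was 9.97% and 14% for HSF1 and HSF2 in cycling cells, and 11% and 9.97% in mitotic cells. HSPA1L/HSPA1A had the highest ratio of 752 HSF1 pairs and of 279 HSF2 pairs in cycling cells, and of 1601 HSF1 pairs in mitotic cells. HSPA1B was 3rd, 3rd and 15th in those. For mitotic HSF2, 471 of 1815 pairs were at least as high as HSPA1L/HSPA1A (26.0%) and 58 as high as HSPA1B (3.20%). Median ratios of all pairs lay between 0.963 and 1.05. These ratios sum tags over peaks of unlike width. Per kb of peak, 5 of the 8 ratios were at least 2, against 2.26% and 10.8% of all HSF1 and HSF2 pairs in cycling cells and 0.187% and 0% in mitotic cells. By that measure 3 and 6 of 752 cycling HSF1 pairs were at least as high as HSPA1L/HSPA1A and HSPA1B, the members themselves included, and 18 and 11 of 279 cycling HSF2 pairs. In mitotic cells the numbers were 1 and 30 of 1601 for HSF1 and 37 and 79 of 1815 for HSF2, whose median over all pairs was 0.752. The pairs hold only sites with a peak in both lists, and most heat-treated peaks had none without heat: 11.7% of HSF1 and 6.47% of HSF2 peaks in cycling cells overlapped one, and 32.1% and 21.9% in mitotic cells.

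**Figure D3:**
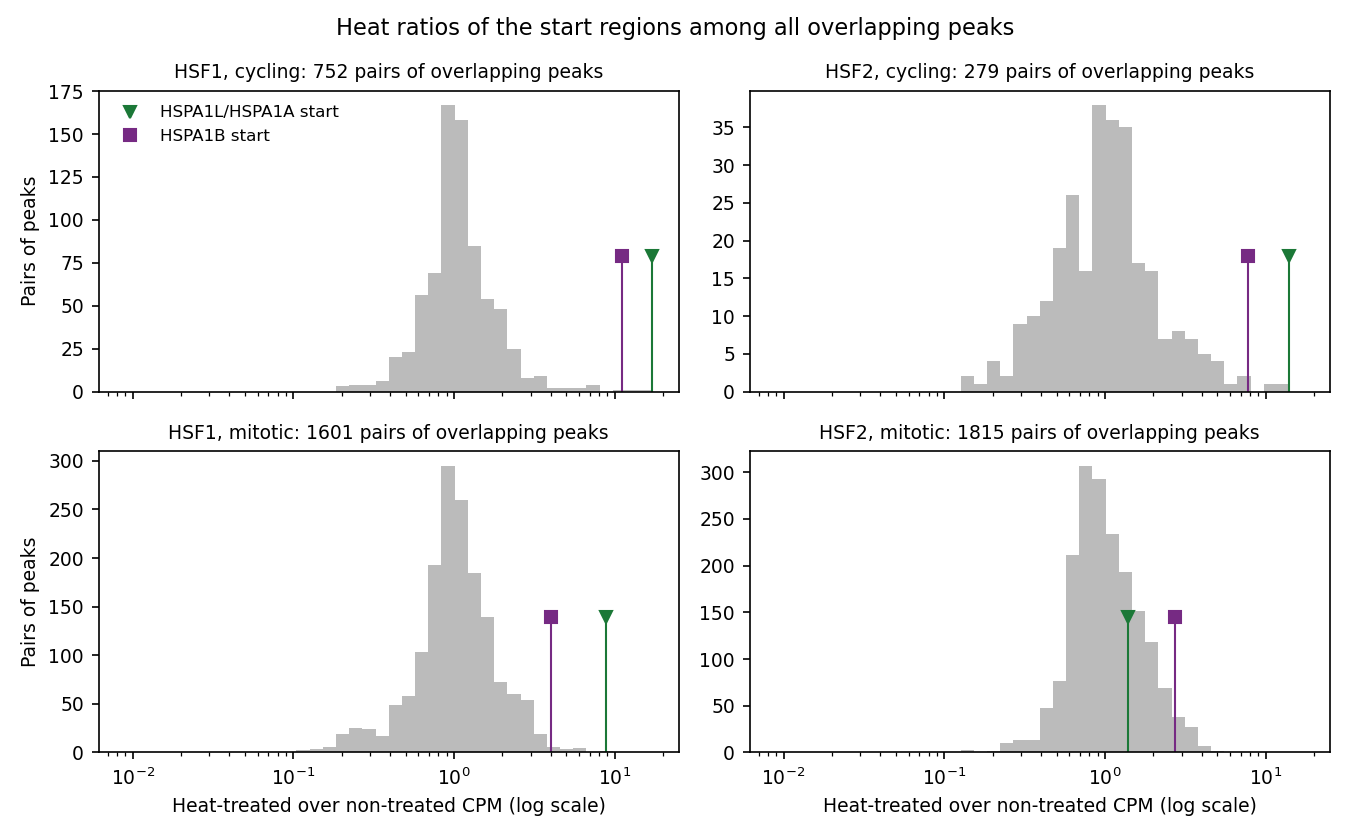
Histograms of the ratio of heat-treated to non-treated CPM (log axis) over all overlapping peaks, for HSF1 and HSF2 in cycling and mitotic cells, with the start regions of HSPA1L/HSPA1A (triangle) and HSPA1B (square) marked. The marked ratios of 17.2 and 11.0 for cycling HSF1 lie at the right end, and those of 1.396 and 2.75 for mitotic HSF2 lie within the body and the right flank of the histogram.

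After heat, mitotic cells had fewer tags at the starts than cycling cells, more so for HSF2. For HSF2 the mitotic to cycling ratio of CPM was 0.241 (0.199 to 0.290) at HSPA1L/HSPA1A and 0.345 (0.290 to 0.409) at HSPA1B. For HSF1 it was 0.532 (0.434 to 0.647) and 0.618 (0.517 to 0.736). IgG did not differ between the cell states beyond counting error, at 0.961 (0.690 to 1.34) and 0.892 (0.650 to 1.23). The peaks also differed in width: cycling HSF1 peaks were 3856 and 3566 bp long and the mitotic ones 2133 and 2176 bp. Per kb of peak, HSF1 had 8.32 CPM in cycling and 8.00 in mitotic cells at HSPA1L/HSPA1A, and 10.1 and 10.2 at HSPA1B. HSF2 remained lower in mitotic cells per kb as well, with 1.91 against 4.26 and 2.29 against 6.14. At most 1 duplicate tag per position was kept in the mitotic HSF1 libraries and at most 2 in the cycling ones, and the part of this cap in the HSF1 ratios was not tested. For HSF1, HSF2 and IgG alike, the heat-treated cycling lists carry bwa in their alignment names and the mitotic ones do not. This difference cannot be told apart from cell state. Among all overlapping pairs, cycling CPM was at least 2 times the mitotic CPM in 19.9% for HSF1 and 24.2% for HSF2. Both HSF2 start regions were beyond that factor and neither HSF1 region was. For IgG the share was 2.16%, and neither start was among them.

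Without heat, neither factor had a lower CPM in mitotic than in cycling cells beyond counting error at either start. The mitotic to cycling ratio of HSF1 was 1.04 (0.481 to 2.13) at HSPA1L/HSPA1A and 1.70 (1.06 to 2.69) at HSPA1B. HSF2 had 2.39 (1.60 to 3.60) and 0.970 (0.643 to 1.44). The HSF2 value of 2.39 came from a peak of 2086 bp in mitotic against 997 bp in cycling cells, and per kb of peak it was 1.14. Per kb of peak the HSF1 ratios were 1.30 and 2.47, and that of HSF2 at HSPA1B was 1.13. By all tags in place of kept tags, HSF1 at HSPA1L/HSPA1A had 0.691 and HSF2 at HSPA1B 0.774. Among all non-treated pairs, cycling CPM was at least 2 times the mitotic CPM in 20.1% for HSF1 and 11% for HSF2, and mitotic CPM was at least 2 times the cycling CPM in 12.4% and 25.3%. The sole start value past either limit was that of HSF2 at HSPA1L/HSPA1A, in the second direction.

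**Figure D4:**
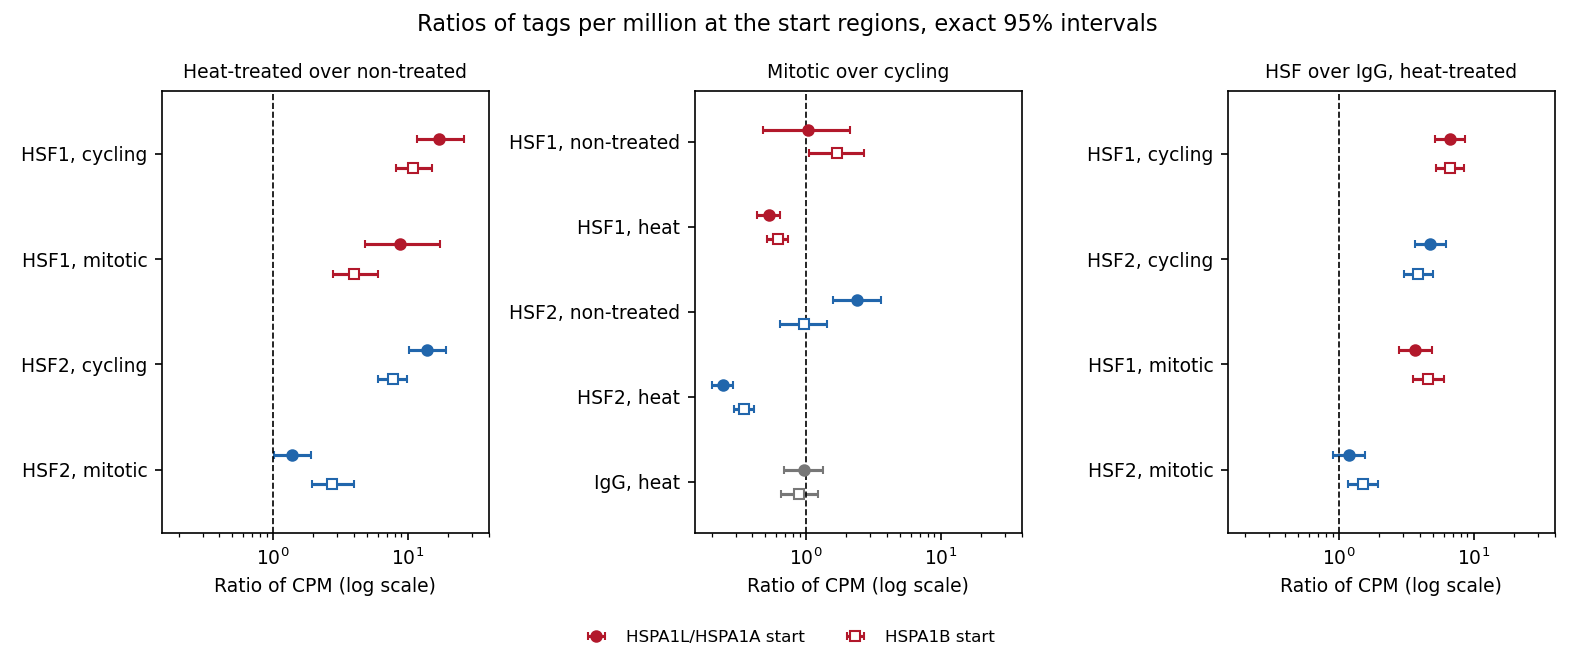
Ratios of CPM (log axis) with exact 95% intervals for heat-treated over non-treated, mitotic over cycling, and HSF over IgG after heat, at the HSPA1L/HSPA1A start (filled circles) and the HSPA1B start (open squares), with HSF1 in red, HSF2 in blue and IgG in grey. The dashed line marks a ratio of 1. All 8 heat ratios lie to its right (1.396 to 17.2), and after heat the mitotic to cycling ratios of HSF2 (0.241 and 0.345) lie furthest to its left.

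IgG gave a sizeable signal at the starts after heat, so the factors are set against it. In cycling cells IgG had 70 tags, 4.81 CPM (3.75 to 6.07), at HSPA1L/HSPA1A and 79 tags, 5.42 CPM (4.29 to 6.76), at HSPA1B. In mitotic cells it had 83 tags, 4.62 CPM (3.68 to 5.72), and 87 tags, 4.84 CPM (3.88 to 5.97). In cycling cells heat-treated IgG thus exceeded the CPM of non-treated HSF1 and HSF2 at both starts, over longer peaks. Per kb of peak IgG had 2.04 and 2.21 CPM there. HSF1 without heat was higher per kb (2.11 and 2.79) and HSF2 without heat lower (1.64 and 2.09). In cycling cells HSF1 exceeded IgG by 6.68 (5.20 to 8.69) and 6.62 (5.23 to 8.48), and HSF2 by 4.73 (3.67 to 6.18) and 3.87 (3.04 to 4.99). In mitotic cells HSF1 exceeded it by 3.70 (2.78 to 4.94) and 4.59 (3.52 to 6.02). In CPM, mitotic HSF2 did not differ from IgG beyond counting error at HSPA1L/HSPA1A, at 1.19 (0.903 to 1.57), and was 1.50 times IgG (1.16 to 1.95) at HSPA1B. The deposited folds were 10.8 and 15.5 for mitotic HSF2 (28299989 kept tags) and 2.39 and 3.92 for mitotic IgG (17981369 kept tags). The fold is the authors' own value at the summit, and CPM counts the whole peak. With the folds scaled for depth, mitotic HSF2 was 2.86 and 2.52 times IgG. By that measure 8 of 8 HSF to IgG ratios were at least 2, but the share over all pairs was not computed for it. That count is therefore not read as a trait of the starts. In CPM the HSF to IgG ratio was at least 2 in 6 of 8 cases, against 7.17% and 6.13% of all pairs for HSF1 and HSF2 in cycling cells and 3.79% and 3.04% in mitotic cells. Of 2998 mitotic pairs of HSF2 and IgG, 510 (17.0%) were at least as high as HSPA1L/HSPA1A and 268 (8.94%) as HSPA1B, whereas for mitotic HSF1 the numbers were 15 and 12 of 2478. Non-treated HSF values have no IgG peak to be set against. IgG thus had start peaks only with heat, also at like depth in cycling cells. The heat ratios of the factors could not be set against one of IgG, and the part of this background in them was not tested.

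The summits also separated the factors from IgG. Relative to the heat-treated cycling HSF1 summit (31783167 at HSPA1L/HSPA1A and 31795325 at HSPA1B), the other 7 HSF summits lay at -3 to 92 bp in the former region and 17 to 123 bp in the latter, counted to the right. The 2 IgG summits lay further right, at 287 and 447 bp and at 322 and 332 bp, that is, in the direction in which HSPA1A and HSPA1B are transcribed. No HSF summit overlapped that range in either region. HSF2 and HSF1 of heat-treated cycling cells differed by 1 and 17 bp.

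HSF start peaks were longer with heat. Without heat the 8 HSF start peaks were 706 to 2086 bp long, with a median of 1054.5. With heat they were 2133 to 5336 bp, with a median of 3292. All 8 heat-treated HSF start peaks reached further right of the assumed start (1338 to 4511 bp) than left of it (391 to 1143 bp). Without heat this held for all 4 HSF peaks at HSPA1L/HSPA1A (652 to 1194 bp right, 53 to 891 bp left) and for 0 of 4 at HSPA1B (137 to 643 bp right, 622 to 785 bp left). The starts are known to the nearest 500 bp only. Counted to the right, the heat-treated cycling HSF1 summits lay at 167 bp from the former and -175 bp from the latter. The contrast between the genes without heat depends on these assumed positions and is not read as a difference between the genes. Heat-treated IgG peaks had a similar extent (2352 to 2686 bp). The longest was HSF2 in cycling cells at HSPA1L/HSPA1A, which ran 4511 bp to the right. Separate peaks on the body side were few: HSF2 of non-treated mitotic cells had 13 tags (0.879 CPM) at 31784729 to 31785357 in HSPA1A, and HSF1 of heat-treated mitotic cells had 18 tags (2.44 CPM) at 31796844 to 31797690 in HSPA1B.

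HSF1 and HSF2 differed most in heat-treated mitotic cells. There HSF1 over HSF2 in CPM was 3.11 (2.44 to 3.97) at HSPA1L/HSPA1A and 3.07 (2.48 to 3.78) at HSPA1B. Ratios of at least 2 made up 8.52% of all overlapping pairs in these cells, whose median was 0.515. Of the 1444 pairs, 33 were at least as high as HSPA1L/HSPA1A and 37 at least as high as HSPA1B. In heat-treated cycling cells the ratios were 1.41 (1.24 to 1.60) and 1.71 (1.51 to 1.94), neither at least 2, as in 7.04% of pairs. In non-treated mitotic cells the order differed by gene, with 0.496 (0.242 to 0.934) at HSPA1L/HSPA1A and 2.09 (1.28 to 3.40) at HSPA1B, where 1.59% of pairs were at least 2. Per kb of peak the former became 1.47. The libraries come from different antibodies, and a ratio between antibodies is not a ratio of bound protein. The mitotic libraries also differ in the cap on duplicate tags (1 for HSF1 and 2 for HSF2), whose part was not tested. Scaled to all tags, the ratios of heat-treated mitotic cells were 2.45 and 2.41.

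Most libraries had more tags at HSPA1B than at HSPA1L/HSPA1A, by up to 2.83 times. HSPA1B had more tags than HSPA1L/HSPA1A in 8 of the 10 libraries with both peaks, the exceptions being heat-treated cycling HSF2 (0.923, 0.805 to 1.06) and non-treated mitotic HSF2 (0.672, 0.436 to 1.03). The surplus was clearest without heat, at 1.74 (1.06 to 2.91) for HSF1 and 1.66 (1.14 to 2.44) for HSF2 in cycling cells, and 2.83 (1.43 to 6.01) for HSF1 in mitotic cells. After heat it was 1.12 (0.995 to 1.26) for HSF1 in cycling cells, and 1.30 (1.03 to 1.66) and 1.32 (1.07 to 1.64) for HSF1 and HSF2 in mitotic cells. IgG had 1.13 (0.808 to 1.58) and 1.05 (0.767 to 1.43). Per kb of peak, and by deposited fold, HSPA1B was higher in 10 of 10.

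Between HSPA1A and HSPA1B, about 7 kb to the right of the former start, lay a further site of both factors. It was singled out after its values were seen. In heat-treated cycling cells HSF1 had a peak at 31788959 to 31790726 with 100 tags, 5.98 CPM (4.86 to 7.27), and a fold of 10.6. HSF2 had one at 31788813 to 31790838 with 111 tags, 5.70 CPM (4.69 to 6.86), and a fold of 8.22. Their summits were 26 bp apart. IgG of the same cells had 23 tags, 1.58 CPM (1.00 to 2.37), with the summit 490 bp to the left of the HSF1 summit. The ratio to IgG was 3.78 (2.39 to 6.24) for HSF1 and 3.61 (2.29 to 5.93) for HSF2.

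In mitotic cells fewer tags fell on this site. HSF1 with heat had 12 tags, 1.62 CPM (0.840 to 2.84), with the summit 28 bp from the cycling one, and IgG had 14 tags, 0.779 CPM (0.426 to 1.31), at 106 bp. HSF1 over IgG was 2.09 (0.882 to 4.86) in these cells, not a difference beyond counting error. The mitotic to cycling ratio was 0.272 (0.136 to 0.496) for HSF1 and 0.493 (0.235 to 1.00) for IgG. The IgG peaks, at 31788871 to 31789730 in cycling and 31789938 to 31790530 in mitotic cells, did not overlap. The IgG ratio thus compares different stretches. The mitotic HSF1 peak was 543 bp long against 1768 bp in cycling cells, and per kb of peak HSF1 had 2.99 and 3.38 CPM, a ratio of 0.885. Heat-treated mitotic HSF2 had no peak there. Without heat, HSF1 and HSF2 of cycling cells and HSF1 of mitotic cells had none either. The single peak without heat was of mitotic HSF2, with 13 tags (0.879 CPM) and a summit 915 bp away.

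The remaining peaks were low. Between the genes, heat-treated cycling HSF1 had 34 tags (2.03 CPM) at 31786162 to 31787264, where the HSF2 start peak of the same cells also reached, and heat-treated mitotic HSF2 had 32 tags (1.13 CPM) at 31785910 to 31786927. HSF2 of non-treated mitotic cells had 12 tags (0.812 CPM) at 31793770 to 31794361, short of the HSPA1B start. On the side of HSPA1L, HSF2 of cycling cells had 60 tags (2.09 CPM) at 31778478 to 31780202 without heat and 32 tags (1.64 CPM) at 31780177 to 31781342 with heat. Heat-treated mitotic IgG had 30 tags (1.67 CPM) at 31778388 to 31779271, overlapping the former. Non-treated mitotic IgG had 6 tags at the left edge of the window with a fold of 0.85. Beyond HSPA1B, heat-treated cycling HSF2 had 73 tags (3.75 CPM) at 31798089 to 31799974, and heat-treated mitotic IgG 38 tags (2.11 CPM) at 31798551 to 31799963. HSF1 had no peak on either outer side in any list.

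A deposited fold of at least 10 was reached by 9 of the 37 peaks. A fold is read here against the other peaks of its own list, since the depths differ. The 9 came from heat-treated lists, 3 of cycling HSF1 (where 4.42% of all peaks reached it), 2 of cycling HSF2 (3.62%), 2 of mitotic HSF1 (0.12%) and 2 of mitotic HSF2 (0.121%). In the other lists the share of all peaks at this fold was 0.0212% for HSF1 and 0.571% for HSF2 of non-treated cycling cells, 0.0201% for HSF2 of non-treated mitotic cells, 0.017% for heat-treated mitotic IgG and 0% for the remaining 4. The starts held 89.5% and 79.8% of the tags in member peaks of heat-treated cycling HSF1 and HSF2, and 90.6% and 91.8% in mitotic cells. Outside the window, the nearest peak of any list lay 223 bp to its left (heat-treated mitotic IgG, 21 tags, fold 2.71) and the nearest on the right 2505 bp away (heat-treated mitotic HSF1, 9 tags, fold 1.02). The nearest heat-treated cycling HSF1 peaks lay 29440 bp to its left (24 tags, fold 2.41) and 31142 bp to its right (25 tags, fold 2.25), and those of HSF2 116400 and 105175 bp away.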

How the data were processed

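ChIP-seq peak lists of 12 antibody libraries were used, and the 2 input samples have no list here. Bowtie, MACS 1.4 and hg19 are the tools and build in the submitters' processing notes. MACS 1.4.1 made the lists per the file headers (p cutoff 1e-05, fragment size 200 bp). Per the file headers, at most 2 duplicate tags per position were kept, or 1 in 3 mitotic lists (HSF1 with and without heat, IgG without). Alignment names carry bwa in 5 cycling lists and another naming in the other 7. For HSF1, HSF2 and heat-treated IgG, naming and cell state therefore cannot be told apart. The bwa lists dropped 0% of tags as redundant and the others 10% to 41%.

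The tags column holds counts in the peak, as deposited. The fold, also deposited, is the ratio of ChIP to input background where the peak is highest. The deposited score is the negative log10 of the MACS p-value times 10, and the FDR is a deposited percent. Folds below 1 made up 29.9% of heat-treated mitotic HSF1 peaks, 48.5% of non-treated mitotic HSF1 peaks and 89.9% of non-treated mitotic IgG peaks. These lists kept at most 1 duplicate tag and are also the shallowest, so depth and cap cannot be told apart. Deposited folds are therefore ranked and counted within a list. Ratios of folds between libraries use folds scaled by input over ChIP kept tags. Values per kb over all pairs and mitotic over cycling shares without heat were added after the values were seen. The list with accession names for chromosomes was renamed.

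Kept tags came from the headers. Of each list, the peak with most tags within 500 bp of a start was used. Pairs of lists were joined by 1 bp of overlap, taking the partner with most tags. This recovered 200 of 200 planted pairs among 3000 simulated sites that lay far apart. No simulated site had more than 1 partner, so split or merged peaks and the choice of a partner were not tried. The window, members, gene list and comparisons were chosen with earlier results of these data known, the site between the genes and the search with mismatches after its values. All peaks of the window are named. The promoter sequences are from RefSeq (GRCh38.p14) and were not placed on hg19. No genome of hg19 was used here. The tools were scipy 1.17.1, pandas 2.3.3, numpy 2.4.6, matplotlib 3.10.9 and Python 3.11.15.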

Additional observations from a re-analysis of the deposited data

Results flagged for a closer look

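In 3 of 4 cases the mitotic to cycling ratio in CPM lay above 1 without heat and below 1 with heat. For HSF1 it was 1.04 and 0.532 at HSPA1L/HSPA1A, and 1.70 and 0.618 at HSPA1B. For HSF2 at HSPA1L/HSPA1A it was 2.39 and 0.241. In the other case, HSF2 at HSPA1B, it was 0.970 and 0.345, both below 1. By depth-scaled fold the HSF1 values were above 1 without heat (2.37 and 3.17) and with heat (1.01 and 1.14). By all tags the HSF1 value without heat at HSPA1L/HSPA1A was 0.691. The share of all overlapping peaks with such a change of direction was not computed. The count of 3 is therefore not read as a trait of the starts. In CPM without heat the 2 factors also lay on either side of 1 at HSPA1B, with 1.70 for HSF1 and 0.970 for HSF2. Per kb of peak both were above it (2.47 and 1.13). The HSF1 to HSF2 ratio at HSPA1L/HSPA1A was below 1 in non-treated mitotic cells (0.496), and above it in non-treated cycling (1.14) and heat-treated mitotic cells (3.11). These differences of direction rest on 1 library each and were not tested, and the intervals of 1.04, 1.14 and 0.970 include 1.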

How the results depend on the processing

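With 1 library per group no replicate could be left out. No paired analysis was possible because no group has a second replicate. Of the 37 peaks, 14 had a fold of at least 5 and 9 of at least 10. The share of all peaks was computed for a fold of 10 (given above) and not for 5. Mitotic to cycling ratios of at most 0.5 numbered 2 of 8, and 4 when tags were scaled to all tags in place of kept tags. The other counts stayed within 1.5 times under the alternatives run. Of 166 single ratios under an alternative, 107 stayed within the counting interval, 46 left it in the same direction and 13 turned. Part of the 107 could not change. Summing start and body side peaks gives the same value in a list without a body side peak. Scaling to all tags hardly changes ratios between cycling lists with start peaks, whose kept and all tags are nearly equal. Per kb of peak 19 stayed, 17 left and 6 turned, and by depth-scaled fold 9, 19 and 4. For mitotic over cycling, HSF1 without heat at HSPA1L/HSPA1A was 0.691 by all tags, and with heat 1.01 there by depth-scaled fold (the fold times input over ChIP kept tags). With heat at HSPA1B it was 1.01 per kb and 1.14 by depth-scaled fold, and HSF2 without heat at HSPA1B was 1.13 and 2.13. HSF1 over HSF2 in non-treated mitotic cells at HSPA1L/HSPA1A was 1.47 per kb and 1.87 by depth-scaled fold. The heat ratio of mitotic HSF2 at HSPA1B was 0.965 per kb. HSPA1B over HSPA1L/HSPA1A was 1.44 per kb and 1.05 by fold for heat-treated cycling HSF2, and 1.26 and 1.65 for non-treated mitotic HSF2. Values per kb change through the width of the peak, by construction. The cause of the other turns was not tested. With the IgG CPM subtracted, chosen after seeing the data, the heat-treated mitotic to cycling ratio of HSF2 was 0.0480 and 0.154, and that of HSF1 0.456 and 0.570. No interval was computed for these. The value of 0.0480 rests on mitotic HSF2 at HSPA1L/HSPA1A, which did not differ from IgG beyond counting error. By depth-scaled fold the HSF2 ratios were 0.319 and 0.438.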
